A study of Mus musculus with 25 samples.

Results

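Interferon-stimulated genes are the genes that a cell switches on when interferon binds its receptor. The 8 genes followed here were chosen by name: Ifit1, Ifit2, Ifit3, Isg15, Usp18, Irf7, Rsad2 and Oasl2. A gene was read from 1 probe set, the brightest over 25 arrays among those that carry 1 gene symbol. By that rule 7 of the 8 genes were measured, out of 19937 genes tested, and each of the 7 had a single such probe set. The probe set that carries Isg15 also carries another symbol, so Isg15 was not analysed here.

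The arrays hold total RNA from mouse mammary tissue, amplified and hybridised to single-colour Affymetrix whole-transcript arrays. There were 10 tumors of K8-creERT2/PIK3CA H1047R mice (K8 tumors) and 2 reference mammary glands of K8-creERT2 control mice (K8 glands), both of a mixed FVB/CD1 background. There were 10 tumors of Lgr5-creERT2/PIK3CA H1047R mice (Lgr5 tumors) and 3 reference glands of Lgr5-creERT2 control mice (Lgr5 glands), both of a mixed FVB/C57/BL6 background. The Cre recombinase is driven by keratin 8, a luminal keratin, or by Lgr5, a Wnt-responsive receptor, and tamoxifen at 7 to 8 weeks of age turns on PIK3CA H1047R, an activated form of the PI3-kinase catalytic subunit, in the cells that express them. The labels give tamoxifen at 7 to 8 weeks for every sample, the control glands included. The control mice carry the creERT2 driver, and the labels name no PIK3CA H1047R allele for them and give no age at collection. Line and background go together, so they cannot be told apart. Whether 2 tumors of a line can share an animal is not stated in the labels, so the p-values reflect spread among the samples at hand, part of which may be technical.

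By tissue markers several arrays went against their labels, but the labelled groups were kept. Adipocyte markers, 16 in number, averaged 12.4 to 12.6 (log2) in Lgr5 tumors 2, 6, 7, 8 and 9, 9.40 to 10.9 in the other 5 Lgr5 tumors and 7.90 to 11.2 in K8 tumors, against 7.69 to 8.48 in K8 glands and 7.56 to 9.46 in Lgr5 glands. The mean of 13 epithelial markers was 8.99 to 9.80 in those 5 Lgr5 tumors and 10.7 to 11.5 in every other array labelled tumor. The mean of 14 squamous markers was 9.60 in K8 tumor 9 and 9.79 in Lgr5 tumor 10, at most 8.08 in the other 18 tumors, 9.80 and 10.1 in K8 glands and 8.59 to 10.3 in Lgr5 glands. Each comparison below is therefore also given for 18 arrays, without these 7. All glands were kept, although their squamous means lay above those of the other 18 tumors. Their adipocyte means lay far below those of the 5 adipocyte-rich tumors. How far they stand for usual mammary gland was not tested, so a rise or fall below is relative to these glands only. K8 tumor 9 and Lgr5 tumor 10 resembled these glands in squamous mean. Leaving them out while keeping the glands can therefore widen tumor-gland differences, and the 18-array calls below share that selection. Without those 2 arrays alone, 5387 genes passed for Lgr5 tumors against glands, beside 3168 with all arrays. For K8 tumors against glands 3963 passed, beside 1815. Ifit2 in those 2 tumors, at 6.57 and 6.71, was among the lowest of the tumors. Array medians lay between 6.34 and 6.43 (log2), and the number of arrays limits the precision.

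As background, type I interferons bind the receptor made of IFNAR1 and IFNAR2, and the kinases JAK1 and TYK2 then phosphorylate STAT2. With IRF9 it is part of a complex that binds the interferon-stimulated response element in the promoters of its target genes. The pathway is best known from antiviral defence, and tumors can carry a standing low activity of it in cancer cells, stroma or immune cells. The products of Ifit1, Ifit2 and Ifit3 bind RNA or one another and restrict translation of viral RNA. ISG15 is a ubiquitin-like protein that is attached to other proteins, and USP18 removes it and also dampens signalling at the receptor. IRF7 is the transcription factor that drives the interferon alpha genes, RSAD2 (viperin) makes a nucleotide that stops viral polymerases, and Oasl2 belongs to the oligoadenylate synthetase family.

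The response element was searched in RefSeq promoter windows of GRCm38.p6, from 250 bases before to 50 after each annotated start as TTTC, then 2 bases of any kind, then TTTC, on either strand (GAAA, 2 bases and GAAA when read from the other). Windows were found for 7 of the 8 genes, Usp18 being the exception, and 4 of these 7 held a match in a window, while 3.99% of all 27025 genes with a window did (3.44% of 32851 windows). The stretches around the matches of Ifit1, Ifit3 and Rsad2 are shown as sequence, and whether the pathway acts through these letters was not tested. Capitals mark the matches, the genes are read 5′ to 3′ on their own strand, and Ifit1 and Ifit3 lie on the plus strand and Rsad2 on the minus strand.
Ifit1, chr19:34640760-34640838: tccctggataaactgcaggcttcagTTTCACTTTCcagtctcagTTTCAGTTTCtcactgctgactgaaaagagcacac
Ifit3, chr19:34583348-34583441: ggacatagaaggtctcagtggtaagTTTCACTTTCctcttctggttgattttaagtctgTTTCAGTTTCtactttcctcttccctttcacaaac
Rsad2, chr12:26456538-26456597: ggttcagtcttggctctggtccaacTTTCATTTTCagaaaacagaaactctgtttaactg
Ifit1 and Ifit3 held the same 2 ten-letter matches, TTTCACTTTC followed by TTTCAGTTTC, whose first bases lay 104 and 85 bases before the start of Ifit1 and 156 and 122 bases before the start of Ifit3. Rsad2 held 1 match, 120 bases before its start. The Isg15 window held 3 overlapping matches on the other strand, between 78 and 57 bases before its start. The windows of Ifit2, Irf7 and Oasl2 held none, which says only that these letters are not in those windows. A match is a description of the sequence and was not tied to the levels below.

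Among the 7 genes, Ifit2 and Ifit3 had the largest differences between tumors and glands of either line. Ifit2 measured 6.71 to 7.74 (log2, median 7.06) in Lgr5 tumors, against 6.30, 6.57 and 6.52 in Lgr5 glands. It measured 6.49 to 7.84 (median 7.19) in K8 tumors, against 6.28 and 6.72 in K8 glands. Every Lgr5 tumor lay above every Lgr5 gland, while K8 tumors 7 and 9, at 6.49 and 6.57, fell between the 2 K8 glands. Ifit3 measured 6.71 to 8.74 (median 7.76) in Lgr5 tumors, against 6.70, 6.72 and 7.26 in Lgr5 glands. It measured 7.01 to 8.79 (median 7.67) in K8 tumors, against 6.83 and 7.30 in K8 glands. Lgr5 tumor 9 alone brought the Lgr5 groups into overlap for Ifit3, and K8 tumor 7 alone did so for the K8 groups. Ifit3b, a near copy of Ifit3, has a probe set of its own that stayed between 5.27 and 5.89 over all arrays. Transcripts of near copies can hybridise to the same probes, so the Ifit3 value is uncertain to that extent.

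Ifit1 showed no such separation and had the wider spread. It measured 6.22 to 8.85 (median 7.55) in Lgr5 tumors, against 7.64, 7.62 and 7.81 in Lgr5 glands. It measured 6.88 to 9.26 (median 7.83) in K8 tumors, against 7.07 and 7.72 in K8 glands. The Lgr5 tumors lay on both sides of their glands, with tumors 1, 3 and 4 at 8.84, 8.76 and 8.85 and tumor 9 at 6.22.

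Usp18 and Irf7, the brake and the transcription factor of the loop, behaved like Ifit1. Usp18 measured 6.97 to 9.67 (median 8.87) in Lgr5 tumors, against 9.36, 8.91 and 9.17 in Lgr5 glands. It measured 8.21 to 10.4 (median 9.21) in K8 tumors, against 8.22 and 9.04 in K8 glands. Irf7 measured 7.68 to 10.25 (median 9.04) in Lgr5 tumors, against 9.24, 9.17 and 9.48 in Lgr5 glands. The tumors of the Lgr5 line again spanned their glands on both sides for both genes. Irf7 measured 8.78 to 9.90 (median 9.24) in K8 tumors, against 8.56 and 9.01 in K8 glands. The 2 K8 glands lay below all 3 Lgr5 glands for Irf7.

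Oasl2 and Rsad2 encode enzymes of antiviral defence. Oasl2 measured 9.43 to 10.56 (median 9.84) in K8 tumors, against 9.08 and 9.42 in K8 glands. It measured 8.54 to 10.48 (median 9.70) in Lgr5 tumors, against 9.68, 9.55 and 9.87 in Lgr5 glands. The K8 groups did not overlap for Oasl2, the lowest tumor exceeding the higher gland by little, and the K8 glands lay below the Lgr5 glands. Rsad2 measured 7.47 to 9.09 (median 7.95) in K8 tumors, against 7.87 and 8.03 in K8 glands. It measured 7.52 to 8.57 (median 8.05) in Lgr5 tumors, against 8.28, 7.71 and 8.49 in Lgr5 glands. The groups of both lines overlapped throughout for Rsad2.

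**Figure D1:**
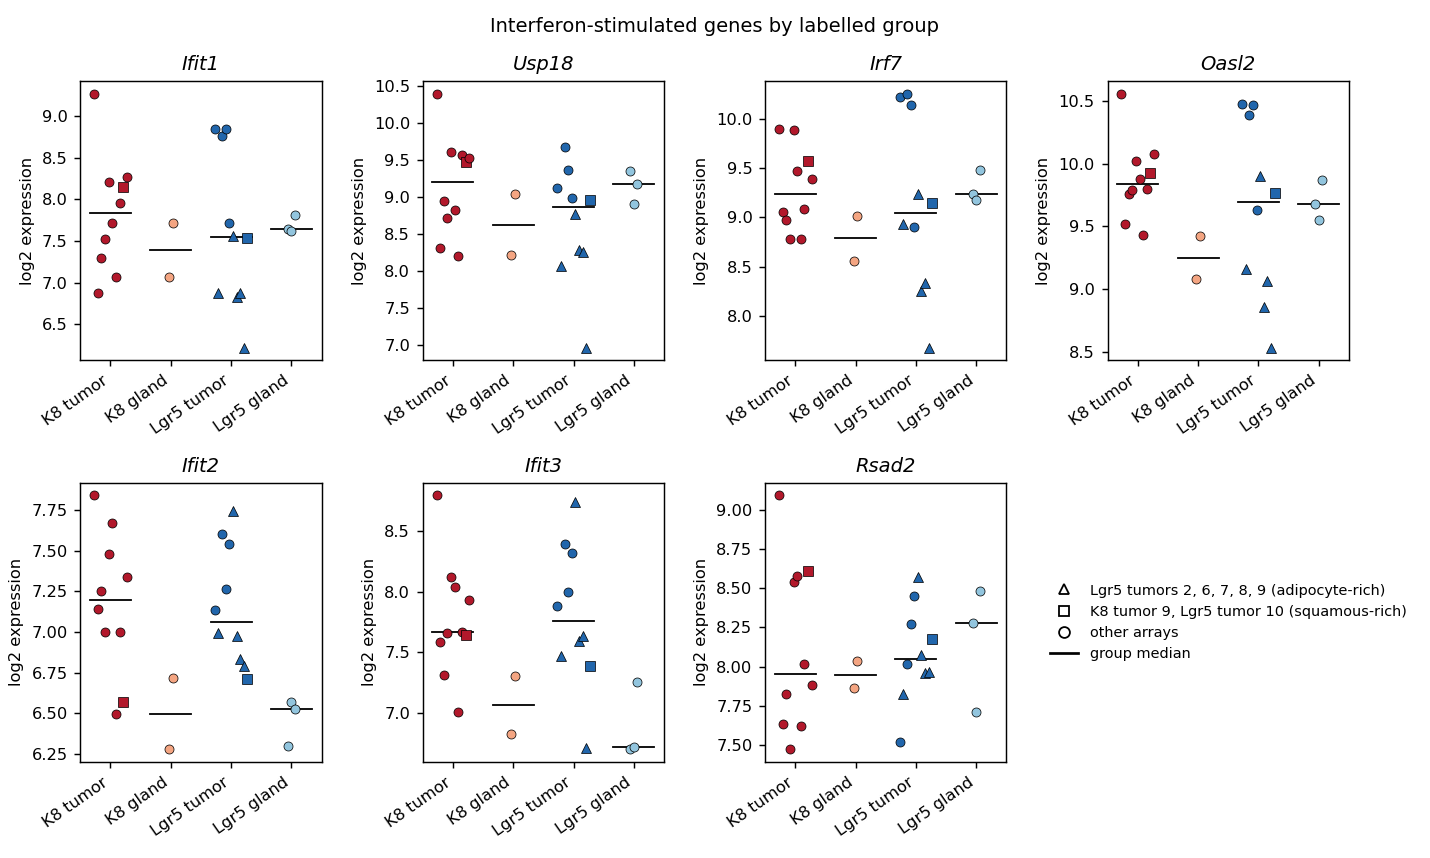
Expression (log2) of the 7 measured genes in each array by labelled group, with a line at the group median; triangles are Lgr5 tumors 2, 6, 7, 8 and 9 and squares are K8 tumor 9 and Lgr5 tumor 10. All Lgr5 tumors lie above the Lgr5 glands for Ifit2 only, and the Lgr5 tumors spread on both sides of their glands for Ifit1, Usp18, Irf7 and Oasl2.

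The first comparison asks how Lgr5 tumors differ from glands of their line, and 0 of 7 genes passed the test (limma, adjusted p under 0.05 over all genes), while 15.9% of all genes did. At an unadjusted p under 0.05 there were 2 of the 7 and 6374 of all genes. Ifit3 differed by 0.92 ± 0.33 (log2, SE; n = 10 and 3; limma adjusted p = 0.0575), a fold of 1.89, and Ifit2 by 0.69 ± 0.24 (limma adjusted p = 0.0543), a fold of 1.62. The other 5 genes lay between -0.50 ± 0.44 for Usp18 and -0.074 ± 0.27 for Rsad2 (limma adjusted p from 0.475 to 0.935). The 95% interval for Ifit1, at -1.11 to 0.94, includes changes of about the size seen for Ifit3 in either direction. The median over the 7 genes was -0.075, and over all genes it was -0.011. Ifit2 was the 1 member whose groups did not overlap, tumors being higher, as for 2.2% of all genes. Leaving out 1 array at a time gave between 0 and 2 of the 7 genes past the threshold, Ifit2 passing without K8 tumor 1, 7 or 9 or Lgr5 tumor 10 and Ifit3 without K8 tumor 1 or Lgr5 tumor 9 or 10 (lowest limma adjusted p = 0.0287 and 0.0305).

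The values of this comparison moved with the tissue markers. In the 5 adipocyte-rich Lgr5 tumors Ifit1 measured 6.22 to 7.56, against 7.54 to 8.85 in the other 5. Oasl2 measured 8.54 to 9.90 against 9.63 to 10.48, Irf7 7.68 to 9.23 against 8.91 to 10.25, and Usp18 6.97 to 8.77 against 8.96 to 9.67 in the same sets. Ifit2 and Ifit3 overlapped widely between these sets, at 6.79 to 7.74 against 6.71 to 7.60 for Ifit2 and 6.71 to 8.74 against 7.39 to 8.40 for Ifit3. The sets were formed from adipocyte markers and are not groups of the study, so no test is given, and the part of fat tissue in these values was not tested. In whole tissue, fewer cells of a type and less RNA per cell cannot be told apart.

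Without the 7 arrays, 4 Lgr5 tumors remained (1, 3, 4 and 5), and 2 of 7 genes rose, while 18% of all genes passed the test and 7.14% were higher. Ifit3 rose by 1.26 ± 0.31 (SE; n = 4 and 3; limma adjusted p = 0.0118) and Ifit2 by 0.92 ± 0.24 (limma adjusted p = 0.0163). In these arrays the tumors lay above all 3 glands for both genes, as for 9.15% of all genes. Ifit1 differed by 0.85 ± 0.45, Irf7 by 0.58 ± 0.33, Oasl2 by 0.54 ± 0.24 and Usp18 by 0.14 ± 0.42, so the sign of these 4 turned relative to the 25 arrays. None of these 4 passed (limma adjusted p from 0.131 to 0.855). Rsad2 stayed near 0, at -0.092 ± 0.35. Several marker means separated the same arrays. Basal markers averaged 10.7 to 11.2 in these Lgr5 tumors, against 9.68 to 10.5 in Lgr5 glands, and endothelial markers 8.70 to 9.42 against 8.14 to 8.25. Neutrophil markers averaged 5.73 to 6.13 in these tumors, against 6.49 to 8.37 in the glands, and squamous markers 5.97 to 8.08 against 8.59 to 10.3. Adipocyte markers averaged 9.49 to 10.9 in these tumors, against 7.56 to 9.46 in the glands, and cell cycle markers 8.19 to 8.74 against 9.30 to 9.34. The part of these marker differences in the rises was not tested.

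The same question was asked of the K8 line. All 7 genes were above 0 in K8 tumors relative to K8 glands, with a median of 0.53, and of -0.012 over all genes, yet 0 of 7 passed the limma test, while 9.1% of all genes did. At an unadjusted p under 0.05 there was 1 of the 7 and 4914 of all genes. Ifit3 differed by 0.71 ± 0.39 (SE; n = 10 and 2; limma adjusted p = 0.269), Ifit2 by 0.68 ± 0.29 (limma adjusted p = 0.137) and Oasl2 by 0.62 ± 0.38 (limma adjusted p = 0.335). Usp18 differed by 0.53 ± 0.52, Irf7 by 0.50 ± 0.49, Ifit1 by 0.44 ± 0.58 and Rsad2 by 0.18 ± 0.32. Oasl2 was the 1 member whose groups did not overlap, as for 7.23% of all genes in the higher direction. The 2 glands differed from each other, gland 1 being lower for all 7 genes, and without gland 1 the median was 0.27, while without gland 2 it was 0.79.

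Without the 7 arrays, of which K8 tumor 9 is the 1 of this line, Ifit2 rose by 0.75 ± 0.25 (SE; n = 9 and 2; limma adjusted p = 0.0357), while 26.8% of all genes passed and 11.4% were higher. Oasl2 differed by 0.62 ± 0.24 (limma adjusted p = 0.0703) and Ifit3 by 0.73 ± 0.32 and neither passed. The spread is shared over the 4 groups in this fit, so leaving out Lgr5 tumors also changed the errors of the K8 comparison. Basal markers averaged 10.5 to 11.5 in the 9 K8 tumors, against 9.58 and 9.59 in K8 glands, and endothelial markers 8.62 to 9.45 against 7.72 and 8.06. Neutrophil markers averaged 5.69 to 5.89 in these tumors, against 7.14 and 7.67 in the glands. Squamous markers averaged 5.76 to 6.84 against 9.80 and 10.1, and fibroblast markers 10.6 to 11.4 against 9.52 and 9.89. Epithelial markers averaged 10.7 to 11.1 against 11.43 and 11.44, and cell cycle markers 8.48 to 9.37 against 9.57 and 9.85. The part of these marker differences was likewise not tested.

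The third comparison sets K8 tumors against Lgr5 tumors, and 0 of 7 genes passed the limma test, while 21.3% of all genes did. At an unadjusted p under 0.05 there were 0 of the 7 and 7080 of all genes. The differences ran from -0.037 ± 0.22 for Ifit3 to 0.51 ± 0.30 for Usp18 (limma adjusted p from 0.231 to 0.953), and the groups overlapped for every member, the share of all genes without overlap being 0%. The 95% intervals were -0.32 to 0.36 for Ifit2 and -0.11 to 1.13 for Usp18. Without the 7 arrays the median over the 7 genes was -0.36, against 0.18 with all arrays. Irf7 then differed by -0.62 ± 0.26 and Ifit1 by -0.74 ± 0.35, and neither passed (limma adjusted p from 0.385 to 0.443), as 0 of 7 genes did and 0% of all genes. The order of the lines for these genes therefore depends on which arrays are used.

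Between K8 glands and Lgr5 glands 0 of 7 genes passed, as 0% of all genes did (limma; 0 of the 7 and 319 of all genes at an unadjusted p under 0.05). The differences ran from -0.52 for Usp18 to 0.17 for Ifit3, with a median of -0.30. Irf7 and Oasl2 were lower in both K8 glands than in all 3 Lgr5 glands, as for 8.72% of all genes. No gland is left out of the 18 arrays, so these differences stay the same there. Over 18 arrays 0 of 7 genes passed and 0.00502% of all genes did. The difference between the tumor-gland contrasts of the lines ran from -0.21 for Ifit3 to 1.03 for Usp18, and 0 of 7 genes passed, as 0% of all genes did (limma; 0 of the 7 and 883 of all genes at an unadjusted p under 0.05). Over 18 arrays it ran from -0.53 for Ifit3 to 0.35 for Usp18, and the median turned from 0.52 to -0.11. Again 0 of 7 genes passed, as 0% of all genes did. The tumor-gland difference was thus not shown to differ between the lines for any member.

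**Figure D2:**
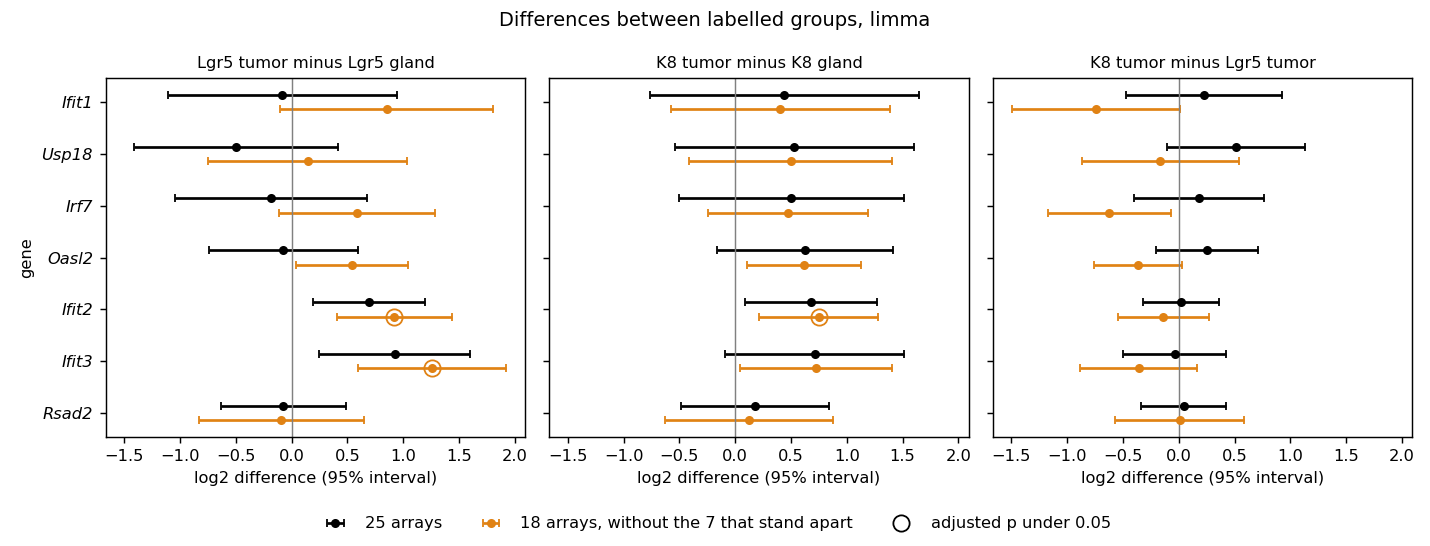
Log2 differences of the 7 genes in 3 comparisons (panels, with 95% intervals from limma), from 25 arrays in black and from 18 arrays in orange; a ring marks an adjusted p under 0.05. The rings are Ifit2 and Ifit3 for Lgr5 tumors and Ifit2 for K8 tumors, all with 18 arrays, and Ifit1, Usp18, Irf7 and Oasl2 move from below 0 to above 0 in the Lgr5 comparison.

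The variation between arrays of the same group was large for these genes. The within-group SD was 0.77 (log2) for Ifit1, more than for 95.9% of the genes tested, 0.69 for Usp18 and 0.65 for Irf7. It was 0.51 for Ifit3, 0.51 for Oasl2, 0.43 for Rsad2 and 0.38 for Ifit2, the last exceeding 83.2% of the genes, and the median over all genes was 0.148. Over the 20 tumors the highest array exceeded the lowest 10.8-fold for Usp18, 8.23-fold for Ifit1 and 2.54-fold for Ifit2. K8 tumor 1 was the highest array for 6 of the 7 genes, all except Irf7. Lgr5 tumor 9 was the lowest for 4 of the 7, namely Ifit1, Usp18, Irf7 and Oasl2.

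Within this variation some genes moved together more closely than others, and the sets named here were drawn from these same correlations. Ifit1, Usp18, Irf7 and Oasl2 formed pairs with Pearson's r of 0.81 to 0.94 over 25 arrays (Spearman's rho 0.81 to 0.92), 0.68 to 0.92 over 18 arrays and 0.74 to 0.92 without K8 tumor 1 and Lgr5 tumor 9, the arrays farthest from the median of the 7 genes. Ifit2 and Ifit3 had r of 0.90 with each other, 0.94 over 18 arrays and 0.90 without those 2 arrays. Ifit2 or Ifit3 with the other set had r of 0.38 to 0.63, 0.54 to 0.74 over 18 arrays and 0.25 to 0.49 without the 2 arrays. Over 18 arrays this range thus overlapped the range within the set of Ifit1, Usp18, Irf7 and Oasl2. Rsad2 had r of 0.33 to 0.51 with the other 6 genes, 0.35 to 0.64 over 18 arrays and 0.19 to 0.41 without the 2 arrays. These are descriptions over 21 pairs, with no test. The arrays share tissue makeup and groups, and around the group means the lowest and highest r over all pairs were 0.31 and 0.95.

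Single arrays show how the sets part. Lgr5 tumor 6 had the second highest Ifit2 (7.74) and Ifit3 (8.74) of all arrays, and its Ifit1 (7.56) and Usp18 (8.77) ranked 15 and 17 of 25, its Irf7 (9.23) 11 and its Oasl2 (9.90) 8. Lgr5 tumor 1 had Irf7 at 10.22 and Oasl2 at 10.48, each the second highest of 25, with Rsad2 at 7.52, below all 3 Lgr5 glands. K8 tumor 9 had the second highest Rsad2 (8.61) and an Ifit2 of 6.57, below K8 gland 2.

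**Figure D3:**
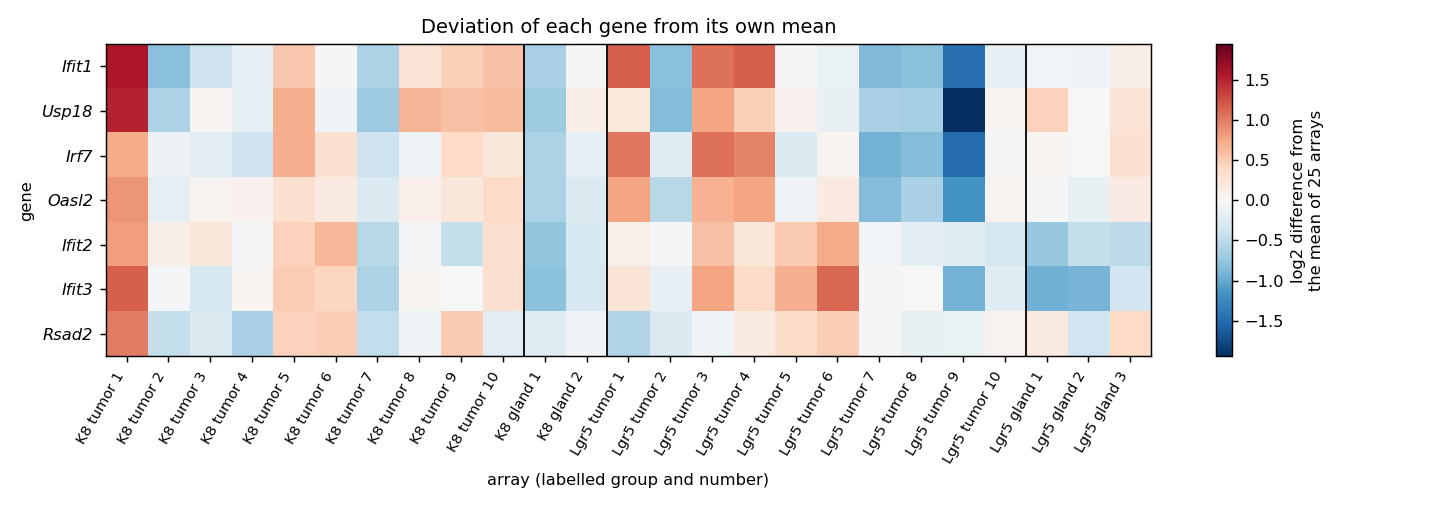
Deviation of each of the 7 genes from its own mean over 25 arrays (log2 colour scale), with arrays in columns and lines between the labelled groups. K8 tumor 1 is the highest array in 6 of 7 rows, and Lgr5 tumor 9 is lowest for Ifit1, Usp18, Irf7 and Oasl2. Lgr5 tumors 1, 3 and 4 are high for Ifit1, Irf7 and Oasl2.

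**Figure D4:**
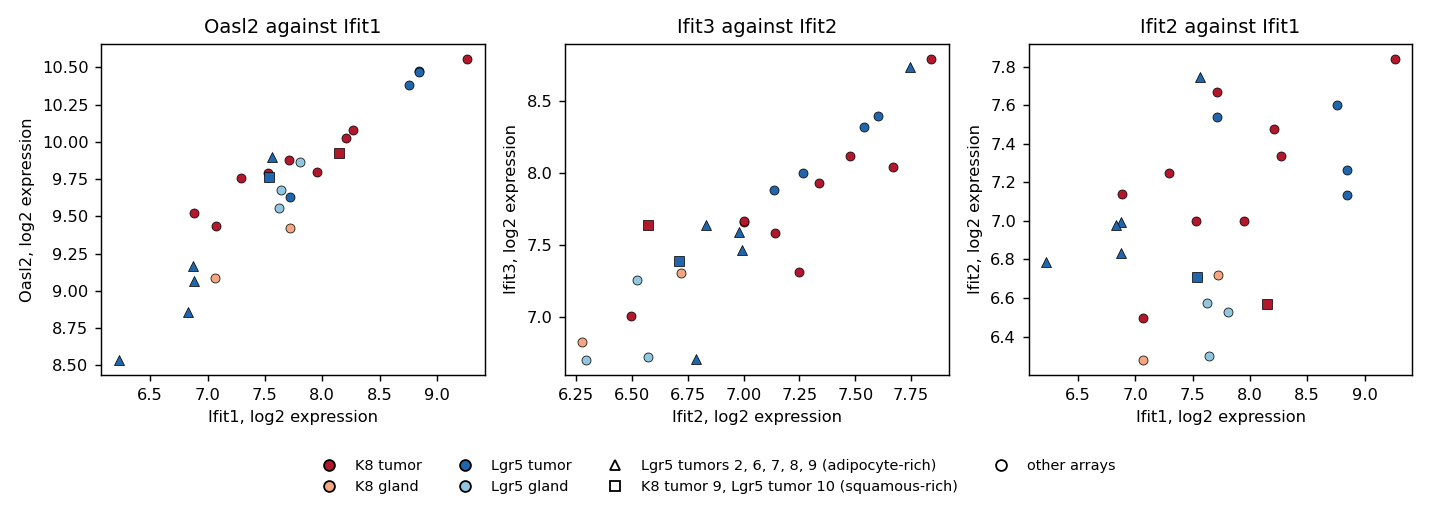
Pairs of genes over 25 arrays (log2 on both axes, one point per array, coloured by labelled group, triangles and squares marking the 7 arrays that stand apart). Oasl2 follows Ifit1 (r = 0.94) and Ifit3 follows Ifit2 (r = 0.90), while Ifit2 against Ifit1 scatters more widely (r = 0.46).

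The genes most like the mean of the 7 members over 25 arrays were Rtp4 (r = 0.87), Irf9 (0.82), Parp12 (0.81), Oas1b (0.81), Ifi35 (0.80), Dhx58 (0.79), Adar (0.79), Phf11d (0.79), Mx2 (0.78) and Mx1 (0.78). All 10 stood in lists of interferon genes drawn up for this comparison, and their r was 0.69 to 0.84 without the 2 farthest arrays and 0.72 to 0.87 over 18 arrays. Those lists were chosen with earlier results of these data known, so their overlap with the 10 genes is a description and no independent check. Over all other genes the median r was -0.023, and 26 genes, or 0.130%, reached 0.7. Rtp4, a receptor transport protein gene that interferon induces, measured 7.89 to 10.57 in Lgr5 tumors and 9.05 to 10.30 in K8 tumors, against 9.38 to 9.52 in Lgr5 glands and 8.82 and 9.30 in K8 glands. Like Ifit1, it spread on both sides of the Lgr5 glands. Mx1, an antiviral GTPase gene, stayed between 5.49 and 5.95 in all arrays, a narrow range in which a high r says little of size. Of the 10, 5 had a promoter window and 0 of these held a match to the response element as searched above.

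The other genes of the pathway were counted from lists, the same test giving each call, and genes outside the naming rule are named below because they passed, chosen after their values were seen. Over 25 arrays 14 of 15 measured interferon ligand genes ranged over less than the median gene did (0.657 log2). The same number had a level below that of the median gene (7.20 log2), and a narrow range at so low a signal cannot show that the ligands did not vary. Ifnb1, the interferon beta gene, measured 5.42 to 5.66 and Ifng, the interferon gamma gene, 5.76 to 6.06 over all arrays. Of the 15 ligands 0 rose and 1 fell in Lgr5 tumors (Ifna16, by 0.18), 0 passed in K8 tumors, and Ifna16 was higher in K8 tumors than in Lgr5 tumors by 0.12. Of all genes 5.28% were higher and 10.6% lower in Lgr5 tumors, and 12.3% were higher in K8 than in Lgr5 tumors. Over 18 arrays 0 of 15 ligands passed in any of these comparisons. Of all genes 18% then passed in Lgr5 tumors, 26.8% in K8 tumors and 0% between the tumors.

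Of 11 receptor and transducer genes, 2 rose and 1 fell in Lgr5 tumors relative to their glands (5.28% of all genes were higher and 10.6% lower). The receptor genes Ifnar2 and Ifngr1 rose by 0.31 ± 0.094 and 0.60 ± 0.16 (log2, SE; limma adjusted p = 0.0302 and 0.0189), and Ifngr2 fell by 0.36. In K8 tumors 0 of 11 passed (3.42% of all genes were higher and 5.69% lower). Over 18 arrays 4 rose in Lgr5 tumors and 3 in K8 tumors, where 7.14% and 11.4% of all genes were higher. Ifnar2, Jak1 and Stat2 were among them in both lines, Stat2 rising by 0.59 in Lgr5 tumors (limma adjusted p = 0.0306) and by 0.61 in K8 tumors (limma adjusted p = 0.0209). Irf9 did not pass with 25 arrays, at -0.18 ± 0.21 in Lgr5 tumors and 0.27 ± 0.25 in K8 tumors. Of 16 sensor and adaptor genes, which detect nucleic acid or pass that signal on, 0 passed in either line, and of 8 feedback regulators 0 passed. Over 18 arrays the feedback gene Trim21 rose by 0.48 in Lgr5 tumors (limma adjusted p = 0.0407) and Socs3 fell by 0.53 in K8 tumors (limma adjusted p = 0.0319). In the same arrays 1 sensor gene rose in K8 tumors (Ifih1, by 0.50) and 2 fell, among them the adaptor gene Myd88, by 0.43. In that K8 comparison 11.4% of all genes were higher and 15.4% lower.

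Of 39 other type I interferon targets, 5 rose and 1 fell in Lgr5 tumors (5.28% of all genes were higher and 10.6% lower), with a list median of 0.068. In K8 tumors 7 rose and 0 fell (3.42% higher and 5.69% lower), with a list median of 0.30. Trim30a and Lgals3bp rose in both lines, Lgals3bp, a secreted glycoprotein gene, by 0.79 ± 0.15 in Lgr5 tumors (limma adjusted p = 0.0061) and by 0.86 ± 0.17 in K8 tumors (limma adjusted p = 0.0118). Ifi27l2a rose by 2.30 ± 0.70 in Lgr5 tumors (limma adjusted p = 0.0314) and fell by 2.17 in K8 tumors relative to Lgr5 tumors. Over 18 arrays Ifi27l2a passed in neither comparison, at 1.13 ± 0.62 and -0.94 ± 0.49 (limma adjusted p = 0.236 and 0.485). Samd9l and Ifitm3, the gene of an antiviral membrane protein, rose by 1.10 and 0.76 in K8 tumors, while in Lgr5 tumors Samd9l was at 0.47 and Ifitm3 at 0.026 and neither passed. Over 18 arrays both rose in Lgr5 tumors too, Samd9l by 0.71 (limma adjusted p = 0.0167) and Ifitm3 by 0.27 (limma adjusted p = 0.0213). Over 18 arrays 7 rose and 1 fell in Lgr5 tumors (7.14% of all genes were higher and 10.8% lower), and 14 rose and 0 fell in K8 tumors (11.4% of all genes were higher and 15.4% lower).

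The genes of class I antigen presentation had a larger share past the threshold than the 7 members, which is a description with no test. Of 8 measured, 4 rose in Lgr5 tumors and 3 in K8 tumors, where 5.28% and 3.42% of all genes were higher, with list medians of 0.52 and 0.58. Over 18 arrays 7 and 6 rose, where 7.14% and 11.4% of all genes were higher. Psmb9, a subunit gene of the immunoproteasome, which cuts peptides for presentation, rose by 0.89 ± 0.28 in Lgr5 tumors (limma adjusted p = 0.034) and by 1.22 ± 0.33 in K8 tumors (limma adjusted p = 0.0256). B2m, the light chain gene of class I molecules, rose by 0.39 and 0.41. Of 16 interferon gamma targets 4 rose in Lgr5 tumors, namely Gbp4 by 1.98, Gbp9 by 1.40, Iigp1 by 1.74 and the T cell chemokine gene Cxcl9 by 2.50, and 0 passed in K8 tumors, where 5.28% and 3.42% of all genes were higher. The list medians were 0.54 and 0.55, and over 18 arrays 8 rose in Lgr5 tumors and 4 in K8 tumors, where 7.14% and 11.4% of all genes were higher. In K8 tumors relative to Lgr5 tumors 3 of the 16 fell, Gbp4 by 1.40, Cd274 by 1.07 and Gbp9 by 0.71, where 9% of all genes were lower. Over 18 arrays 0 passed, as 0% of all genes did. No difference of these contrasts between the lines passed for any list member.

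**Figure D5:**
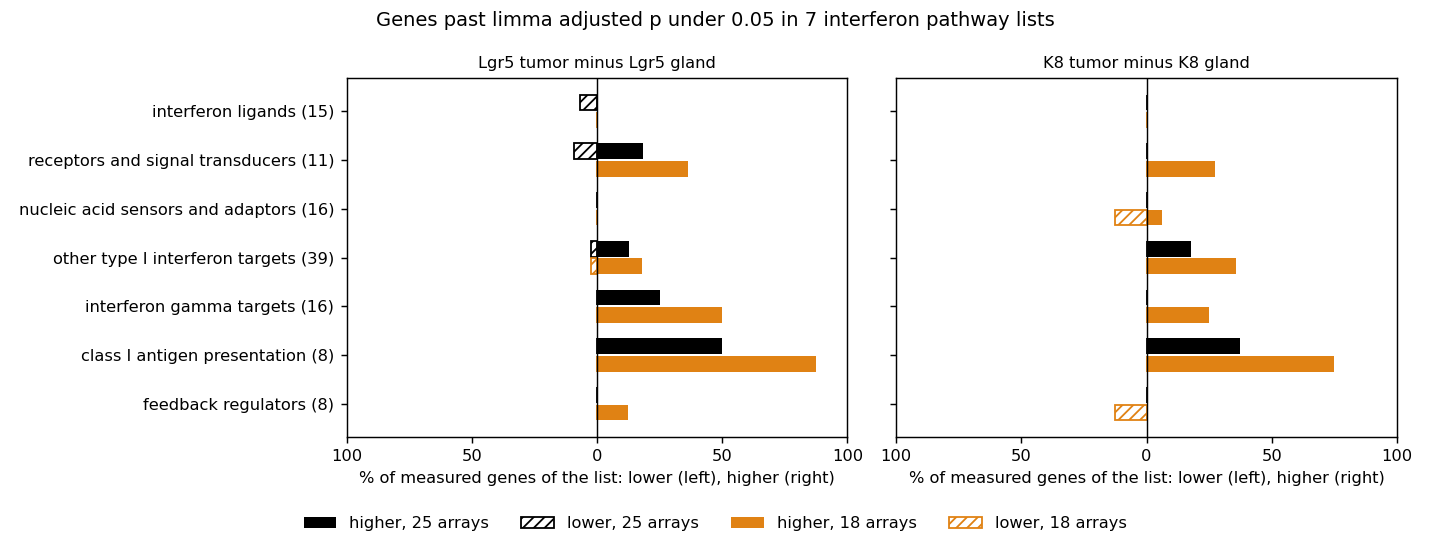
Share of the measured genes of each list (number in parentheses) that passed limma's adjusted p of 0.05, lower to the left and higher to the right, for Lgr5 tumors and K8 tumors against their glands, from 25 arrays in black and 18 arrays in orange. Class I antigen presentation reaches 87.5% and 75% with 18 arrays, and the ligand list has 1 lower gene with 25 arrays.

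Markers of immune and other cell types, and of the cell cycle, were measured beside these values. Over 25 arrays the mean of the 7 genes had r of -0.14 with 12 macrophage markers, -0.24 with 10 T cell markers, -0.22 with 8 NK cell markers and -0.13 with 7 plasmacytoid dendritic cell markers. Over 18 arrays these were -0.062, 0.27, 0.19 and -0.0063, so the sign turned for T cell and NK cell markers. The mean of the 7 genes had r of 0.53 with 10 basal cell markers over 25 arrays and over 18 arrays. Other lists went the other way over 18 arrays, with r of -0.50 for cell cycle, -0.40 for squamous and -0.39 for neutrophil markers. Over 25 arrays these were 0.12, -0.094 and -0.15. Adipocyte markers had r of -0.31 over 25 arrays and 0.19 over 18, and epithelial markers 0.36 and -0.24. B cell markers had r of -0.30 over 25 arrays and 0.037 over 18, and fibroblast markers -0.046 and 0.26. All these r pool tumors and glands, which the basal markers separated over 18 arrays. T cell markers averaged 6.06 to 7.27 in Lgr5 tumors and 5.95 to 6.39 in K8 tumors, against 6.04 to 6.21 in Lgr5 glands and 5.98 and 6.04 in K8 glands, with the highest value in the adipocyte-rich set. Endothelial markers averaged 8.43 to 9.69 in Lgr5 tumors and 7.86 to 9.45 in K8 tumors, against 8.14 to 8.25 in Lgr5 glands and 7.72 and 8.06 in K8 glands, and had r of 0.52 with the 7 genes over 18 arrays and -0.040 over 25. The part of these cell types in the interferon-stimulated genes was not tested.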

How the data were processed

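Values were the deposited log2 table of 25 arrays by 34760 probe sets, log2 by its range of 4.13 to 13.9, a base the labels do not state. Per the submitters' processing notes the authors used affy, without a version. No source used here gives the background correction, the summarization or the genome build, and no scanner file was used. Of the probe sets, 21640 had 1 symbol in the platform annotation, 1321 several and 11799 none, and 21553 were found in the RefSeq genes of GRCm38.p6, with 0 symbols renamed. The brightest probe set stood for each of 954 symbols that had several, and no filter was set on low values.

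Tests used limma 3.58.1 in R 4.3.3, with lmFit on 4 group means over all 25 arrays, eBayes and Benjamini-Hochberg adjustment over 19937 genes at 0.05. Errors are SEs of this fit. It was checked on simulated data. Figures used matplotlib 3.10.9. The members, lists, tests and the 7 arrays left out were chosen with earlier results of these data known. Named genes were the members, the 10 genes with the highest r with their mean (no predicted genes or olfactory and vomeronasal receptors), and 4 per list by that r, except where the text says otherwise.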

Additional observations from a re-analysis of the deposited data

How the results depend on the processing

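Ifit2 and Ifit3 kept their direction in both tumor-gland comparisons under every alternative that they entered, but whether they passed depended on the setting. For Lgr5 tumors against glands Ifit2 also passed (limma) with array weights (0.65, adjusted p = 0.0126), and with the replicate block (0.85, adjusted p = 0.0284), and both genes passed without K8 tumor 9 and Lgr5 tumor 10 (0.74 and 0.97, adjusted p = 0.0201 and 0.0395). Ifit3 passed with genes above the median level (limma adjusted p = 0.0367). Ifit2, with a mean of 7.03 below the 7.20 of the median gene, did not enter that run. Leaving out 1 array gave adjusted p of 0.0287 to 0.223 for Ifit2 and 0.0305 to 0.222 for Ifit3. Ifit2 passed without K8 tumor 1, 7 or 9 or Lgr5 tumor 10, and Ifit3 without K8 tumor 1, Lgr5 tumor 9 or Lgr5 tumor 10. For K8 tumors against glands Ifit2 passed with array weights (0.76, adjusted p = 0.00644). The cause was not tested, except that fewer genes enter above the median level.

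Counts of all genes passing for Lgr5 tumors against glands were 690 when no other group entered the fit, 7815 under array weights, 1737 under the replicate block, 1 without the 5 adipocyte-rich tumors, 5387 without K8 tumor 9 and Lgr5 tumor 10, and 252 to 4990 leaving out 1 array (252, 1976 and 705 without Lgr5 gland 1, 2 and 3, 4990 without Lgr5 tumor 10), beside 3168. For K8 tumors against glands they were 2859 when no other group entered, 6341 with array weights, 3963 without K8 tumor 9 and Lgr5 tumor 10, 5351 without the 7 arrays, and 30 to 3382 leaving out 1 array (30 and 75 without K8 gland 1 and 2, 3382 without K8 tumor 9), beside 1815. For K8 against Lgr5 tumors they were 7997 with array weights, 0 without the 5 tumors, 0 without the 7 arrays and 2291 to 5698 leaving out 1 array (2366, 2328, 2403 and 2291 without Lgr5 tumor 2, 6, 7 and 8), beside 4246. For K8 against Lgr5 glands they were 5 with array weights, 1 without K8 tumor 9 and Lgr5 tumor 10, 1 without the 7 arrays and 0 to 15 leaving out 1 array (3 and 15 without K8 gland 1 and 2, 1 without Lgr5 tumor 10 or Lgr5 gland 1), beside 0. For the difference of contrasts they were 1 without K8 tumor 9 and Lgr5 tumor 10 and 0 to 14 leaving out 1 array (3 and 14 without K8 gland 1 and 2, 1 without Lgr5 tumor 10), beside 0. A lone K8 gland is assumed to vary like the other groups.

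These signs turned. For Lgr5 tumors against glands, the replicate block gave Ifit1 0.18, Irf7 0.17 and Oasl2 0.15. Without the 5 tumors Ifit1 was 0.65, Usp18 0.078, Irf7 0.44 and Oasl2 0.44, and without the 7 arrays 0.85, 0.14, 0.58 and 0.54. For K8 against Lgr5 tumors, array weights gave Ifit3 0.069 and Rsad2 -0.022, and quantile normalization Ifit2 -0.0092. Without the 5 tumors Ifit1 was -0.51, Ifit2 -0.071, Usp18 -0.065, Irf7 -0.45 and Oasl2 -0.27, and without the 7 arrays -0.74, -0.14, -0.16, -0.62 and -0.37. Leaving out 1 array moved Ifit1 from -0.22 to 0.070, Oasl2 from -0.17 to 0.046 and Rsad2 from -0.30 to 0.091 in Lgr5 tumors against glands, and Ifit2 from -0.054 to 0.096, Ifit3 from -0.16 to 0.066 and Rsad2 from -0.063 to 0.12 between tumors. Of 10 same-numbered tumor pairs 4 had a correlation over 0.1 (-0.15 to 0.51). Differently numbered pairs were not compared, so these values cannot show whether the numbers pair the samples. The replicate block is therefore only an alternative setting. The only-groups fit has no meaning for the difference of contrasts and was not run.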
